A study of Saccharomyces cerevisiae with 16 samples.

Results

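The genes described here are 7 nuclear genes for subunits of cytochrome c oxidase in budding yeast, Saccharomyces cerevisiae: COX4, COX6, COX7, COX8, COX9, COX12 and COX13. They were chosen by name, as nuclear subunits of the enzyme apart from the paralogs COX5A and COX5B, and they are 7 of the 6692 genes in the deposited count table. COX26, a further nuclear subunit, is not among them and is described with the other subunits. All 7 were found, and all 7 passed the filter on low counts that left 5876 genes to test. The study measured polyadenylated RNA in 16 libraries, 4 for each of 4 groups, with the replicates numbered 2 to 5. The WT group is labelled wild type, and the H113N group carries the H113N substitution in histone H3, a histidine-to-asparagine change at a residue that the series title ties to a cupric reductase activity. The WT_YFH1-off group is labelled p(GAL1)-YFH1, and the H113N_YFH1-off group combines that construct with H113N. YFH1 encodes frataxin, a mitochondrial protein of iron-sulfur cluster assembly, and the comparisons ask how the transcripts respond to its shutoff with and without the mutated histone.

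In the YFH1-off strains the gene stands behind the galactose-inducible GAL1 promoter, so an effect of the shutoff and an effect of the strain's construction cannot be told apart. The growth protocol is worded for YFH1-off cells but is attached to all 16 samples. It describes cells taken from YPG into SC medium, a fermentative medium per the design text, at 30 °C for 44 h in all. The labels do not say that replicates came from separate cultures, so the p-values measure the spread between these samples, part of which may be technical.

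Cytochrome c oxidase, or complex IV, is the last enzyme of the respiratory chain: it takes electrons from cytochrome c and passes them through copper and heme centres to oxygen. Its catalytic core is made of Cox1, Cox2 and Cox3, which are encoded by mitochondrial DNA, and small subunits encoded in the nucleus surround that core. In yeast the nuclear genes are known to be expressed more in respiring than in fermenting cells, and the Hap2/3/4/5 complex, which binds CCAAT, is a known activator of several of them.

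Total counts ran from 6694390 to 10663540 per library, and the 7 genes held between 44 and 946 counts each in any library. Levels are given as CPM, a gene's counts relative to all counts of its library, with library sizes scaled by TMM factors. The floor of 3 counts stood at 0.279 to 0.487 CPM, and such floors cover counting error only. YFH1 itself was measured at 59.9 to 67.9 CPM in the WT libraries and 46.5 to 58.5 CPM in the H113N libraries, against 5.86 to 8.93 CPM in WT_YFH1-off and 9.03 to 12.7 CPM in H113N_YFH1-off. The groups with YFH1 on and off did not overlap in YFH1, and the fall was smaller in H113N than in WT by 0.84 on the log2 scale (edgeR, BH-adjusted p = 0.00113). Between the shutoff groups YFH1 was higher in H113N than in WT by 0.55 on the log2 scale (edgeR, BH-adjusted p = 0.00367). With YFH1 on it was lower in H113N by 0.29 (edgeR, BH-adjusted p = 0.02), a call lost in 3 of 23 alternatives. Both the histone genotype and the residual YFH1 level therefore differed between the shutoff groups. In a measurement of bulk RNA, fewer transcripts per cell and fewer cells that express a gene cannot be told apart.

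The upstream sequences of the 7 genes are shown first. They are a description, since genes outside the 7 hold the same letters. In the sacCer3 build, whose assembly is that of RefSeq R64, the window of 250 bases before the start codon was read on both strands. It held CCAAT in 6 of the 7 genes, against 35.4% of 6001 promoter windows of the same length. Of 9 genes for nuclear subunits of the bc1 complex, another respiratory complex, 7 held CCAAT. The stretches of 25 bases around each match are printed 5′ to 3′ on the strand that reads CCAAT, with those 5 bases in capitals.
COX6, chrVIII:209480-209504, minus strand: tttgaccggaCCAATtaggtccctt
COX7, chrXIII:779275-779299, plus strand: cgcggcgtagCCAATcaagtactgc
COX8, chrXII:910152-910176, minus strand: acggtttgcaCCAATcatacgagag
COX9, chrIV:334529-334553, plus strand: tggtagcgggCCAATcaggttgcag
COX12, chrXII:225363-225387, minus strand: ataacattgaCCAATcaattttcag
COX13, chrVII:144586-144610, plus strand: ttttttcccaCCAATgagaggcggt
The first base of the match lay 215 bases before the start codon in COX6, 162 in COX7, 201 in COX8, 147 in COX9, 205 in COX12 and 212 in COX13. The COX6 window reaches into the gene YHR050W-A, which lies on the same strand and ends 59 bases before COX6 starts. In COX6, COX7 and COX9 the match was on the strand opposite to the gene, and in the other genes it was on the gene's own strand. The longer motif ACCAATNA, which contains CCAAT, was found in COX6, COX8, COX12 and COX13, that is in 4 of 7, against 4.33% of the windows. Of the 9 bc1 genes, 2 held ACCAATNA. The consensus motif of the heme-responsive activator Hap1 is a direct repeat of CGG with TA between the repeats. On either strand it was found in 0 of the 7 windows, in 1 of the 9 bc1 windows and in 0.1% of all windows. Of the paralogs, COX5A held 2 CCAAT matches and COX5B, whose transcript was not called on shutoff, held 2 CCAAT matches, of which 1 lies in ACCAATNA. COX4 held none of these motifs in its 250 bases. A window of 500 bases, read after the shorter one had been seen, held none of them in COX4 either. At that length CCAAT was in 6 of the 7 members, against 62.4% of all windows. The untranslated leader of COX4 is known to contain an intron, so a window counted from its start codon does not reach as far upstream of its transcript. A match is a description of the letters and not evidence of binding, and its absence says only that these letters are not in the window.

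When YFH1 was shut off in cells with normal H3, transcripts of all 7 subunit genes fell, by 1.96-fold to 6.51-fold. COX6 and COX4, which encode subunits on the matrix side of the enzyme, fell most, and COX9, which encodes a membrane-spanning subunit, fell least. All 7 were lower at the threshold (edgeR, BH-adjusted p from 5.06e-11 to 5.98e-07), where 49.5% of the 5876 genes were called in either direction and 25% were lower. For 6 of the 7 the fall was at least 2-fold. The median log2 fold change of the members was -1.5, against 0.00867 over all genes tested.

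COX4 (YGL187C, chrVII:149704-150171, minus strand) encodes a zinc-binding subunit on the matrix side, the counterpart of mammalian COX5B. Its 4 WT libraries, in the order of replicates 2 to 5, held 94.4, 69.5, 70.1 and 80.4 CPM, and the WT_YFH1-off libraries held 13.4, 19.2, 15.3 and 14.9 CPM. Every WT_YFH1-off library was far below every WT library. A lack of overlap between these groups was found for 42.5% of genes tested, in either direction. The means were 78.6 ± 11.7 and 15.7 ± 2.44 CPM (SD, n = 4 each). The log2 fold change was -2.33 (SE 0.135; edgeR, BH-adjusted p = 2.96e-10).

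COX6 (YHR051W, chrVIII:209705-210151, plus strand) encodes a matrix-side subunit that sits beside Cox5, the counterpart of mammalian COX5A. It was measured at 83.5, 60.5, 62.3 and 61.2 CPM in WT and at 11.7, 9.26, 12.2 and 7.90 CPM in WT_YFH1-off. WT replicate 2 stood well above the other 3 WT libraries, and the groups did not overlap. The log2 fold change was -2.70 (SE 0.136; edgeR, BH-adjusted p = 5.06e-11), the largest fall of the 7. Without WT replicate 2 it was -2.58.

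Cox7, Cox8 and Cox9 are small membrane-spanning subunits, the counterparts of mammalian COX7A, COX7C and COX6C. COX7 (YMR256C, chrXIII:778945-779127, minus strand) averaged 18.9 ± 1.33 CPM in WT libraries against 7.16 ± 0.198 CPM in WT_YFH1-off (SD, n = 4 each), which is -1.40 on the log2 scale (SE 0.111; edgeR, BH-adjusted p = 1.84e-08). COX8 (YLR395C, chrXII:909729-909965, minus strand) averaged 45.0 ± 3.23 CPM against 14.6 ± 1.70 CPM (SD, n = 4 each), which is -1.62 (SE 0.0881; edgeR, BH-adjusted p = 1.34e-10). In both genes every WT_YFH1-off library was below every WT library, and the 4 WT_YFH1-off libraries of COX7 lay close together, between 7.004 and 7.438 CPM. These libraries held 44 to 65 counts of COX7, for which counting error alone is larger than that spread.

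COX9 (YDL067C, chrIV:334217-334396, minus strand) held 63.4, 45.8, 49.2 and 52.1 CPM in WT and 23.7, 29.6, 28.7 and 25.7 CPM in WT_YFH1-off. The groups did not overlap, and WT replicate 2 was again the highest library. The log2 fold change was -0.97 (SE 0.102; edgeR, BH-adjusted p = 5.98e-07), so that 51.0% of the WT level remained, whereas 15.4% remained for COX6.

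Cox12, the counterpart of mammalian COX6B, lies on the side of the intermembrane space, and Cox13, the counterpart of mammalian COX6A, spans the membrane at the edge of the complex. COX12 (YLR038C, chrXII:224921-225172, minus strand) averaged 41.6 ± 3.93 CPM in WT libraries against 14.7 ± 1.65 CPM in WT_YFH1-off (SD, n = 4 each), which is -1.5 on the log2 scale (SE 0.0949; edgeR, BH-adjusted p = 9.49e-10). COX13 (YGL191W, chrVII:144808-145197, plus strand) averaged 94.1 ± 10.9 CPM against 38.4 ± 2.01 CPM (SD, n = 4 each), which is -1.30 (SE 0.0794; edgeR, BH-adjusted p = 6.51e-10). In both, all 4 WT_YFH1-off libraries were below all 4 WT libraries. Each of the 7 genes has 1 coding exon and overlaps no other gene in the RefSeq annotation. None contains a stretch of 50 bases that occurs again exactly in the genome. Copies with mismatches were not searched for.

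**Figure D1:**
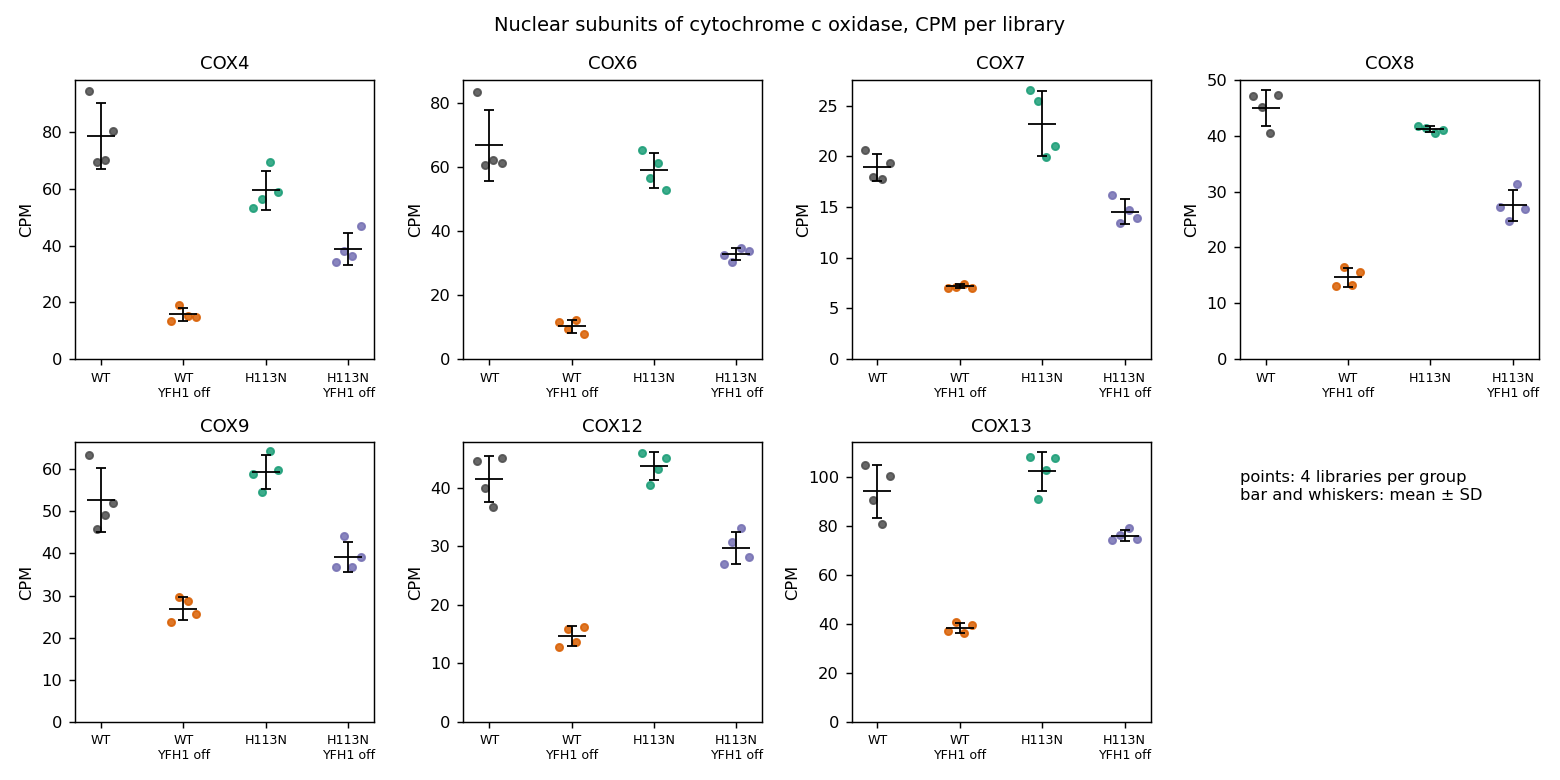
CPM of each of the 7 genes in all 16 libraries, by group; points are libraries, and the bar and whiskers give the mean ± SD of 4 libraries. In every panel the WT YFH1-off libraries are lowest, the H113N YFH1-off libraries lie above them, and both YFH1-on groups are higher still, as in COX6 with means of 10.3, 32.8, 66.8 and 58.9 CPM for WT_YFH1-off, H113N_YFH1-off, WT and H113N.

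In cells with the H113N histone the same 7 transcripts also fell on YFH1 shutoff, but by 1.35-fold to 1.80-fold, and none by as much as 2-fold. COX6 again had the largest fall and COX13 the smallest. All 7 were lower at the threshold (edgeR, BH-adjusted p from 7.32e-05 to 0.00155), where 20.6% of genes were called in either direction and 8.73% were lower. The median log2 fold change was -0.60, against 0.0231 over all genes tested.

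COX4 held 53.2, 56.4, 69.3 and 59.0 CPM in H113N and 34.2, 38.2, 36.1 and 46.7 CPM in H113N_YFH1-off, and COX6 held 65.4, 56.5, 61.1 and 52.7 CPM against 32.5, 30.2, 34.6 and 33.8 CPM. In both genes each YFH1-off library was below each YFH1-on library. The log2 fold changes were -0.62 for COX4 (SE 0.121; edgeR, BH-adjusted p = 0.00155) and -0.85 for COX6 (SE 0.116; edgeR, BH-adjusted p = 7.32e-05). In COX7 the libraries ran from 19.9 to 26.6 CPM in H113N and from 13.4 to 16.2 CPM in H113N_YFH1-off, and in COX8 from 40.5 to 41.7 CPM and from 24.7 to 31.4 CPM. These changes came to -0.67 and -0.58 on the log2 scale (edgeR, BH-adjusted p = 0.000115 and 8.38e-05).

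With YFH1 on and off, COX9 averaged 59.4 ± 4.02 and 39.2 ± 3.56 CPM, COX12 43.7 ± 2.42 and 29.8 ± 2.75 CPM, and COX13 102.4 ± 8.01 and 76.0 ± 2.18 CPM (SD, n = 4 each). All 7 genes had no overlap between the H113N groups, as was the case for 27.3% of genes tested. The log2 fold changes were -0.60 for COX9, -0.55 for COX12 and -0.43 for COX13 (edgeR, BH-adjusted p = 0.000299, 0.000216 and 0.000593).

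The difference between both shutoff effects, the interaction of genotype and shutoff, was positive for all 7 genes and was called for 6 of them, where 30.8% of genes were called in either direction and 17.0% were higher. The call was missed by COX9. On the log2 scale the change in H113N was 26.6% of that in WT for COX4, 31.3% for COX6, 33.2% for COX13, 35.6% for COX8, 36.9% for COX12 and 48.1% for COX7. For COX9 it was 61.8%. The 7 changes lay closer together in H113N, from -0.43 to -0.85 against -0.97 to -2.70 in WT.

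The interaction came to 1.71 for COX4 (SE 0.181; edgeR, BH-adjusted p = 1.9e-06) and 1.86 for COX6 (SE 0.18; edgeR, BH-adjusted p = 7.05e-07). It was 0.73 for COX7 (SE 0.149; edgeR, BH-adjusted p = 0.00124) and 1.05 for COX8 (SE 0.12; edgeR, BH-adjusted p = 4.57e-06). COX12 and COX13 had values of 0.95 and 0.86 (edgeR, BH-adjusted p = 2.7e-05 and 1.24e-05). For COX9 the estimate was 0.37 with a 95% interval of 0.0736 to 0.668 (edgeR, BH-adjusted p = 0.0557), so its call rests on the processing: it passed the threshold with library size only (0.43, edgeR, BH-adjusted p = 0.0288), without WT replicate 3 (0.42, edgeR, BH-adjusted p = 0.0332) and without H113N replicate 4 (0.41, edgeR, BH-adjusted p = 0.0464), within a range of 0.0288 to 0.132 over all alternatives. The median of the 7 was 0.95, against 0.0113 over all genes tested.

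**Figure D2:**
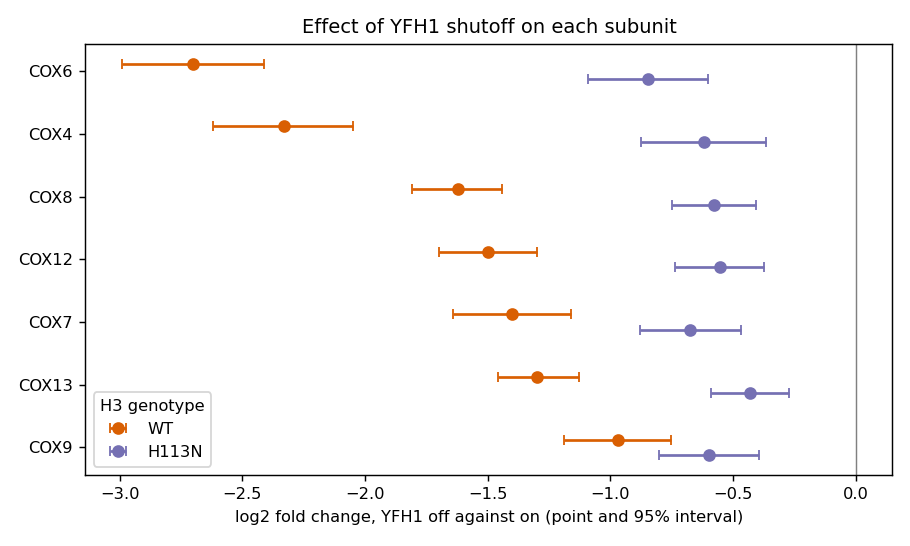
Log2 fold change of YFH1 off against on for each subunit gene, in WT and in H113N, with 95% intervals from the edgeR fit. The WT estimates run from -2.70 for COX6 to -0.97 for COX9 and the H113N estimates from -0.85 to -0.43; the intervals of the genotypes meet for COX9 alone among the 7.

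With YFH1 on, most of the 7 transcripts differed little between the histone genotypes. At the threshold 1 gene was lower in H113N, COX4, and 1 was higher, COX7, where 46.2% of genes were called, 23.2% lower and 23.0% higher. The median log2 fold change of the 7 was 0.071, against 0.00189 over all genes. COX4 was lower by 0.40 on the log2 scale (SE 0.117; edgeR, BH-adjusted p = 0.0102), and its highest H113N library, at 69.3 CPM, was just under its lowest WT library, at 69.5 CPM. A lack of overlap between these groups was found for 37.1% of genes tested. In COX7 the H113N mean of 23.2 ± 3.25 CPM exceeded the WT mean of 18.9 ± 1.33 CPM (SD, n = 4 each) by 0.29 on the log2 scale (SE 0.0961; edgeR, BH-adjusted p = 0.0201). The COX7 libraries of these groups overlapped, and the call was lost without WT replicate 4 (0.27, edgeR, BH-adjusted p = 0.054), without H113N replicate 2 (0.22, edgeR, BH-adjusted p = 0.0799), without H113N replicate 3 (0.25, edgeR, BH-adjusted p = 0.0643) and with only the groups compared in the fit (edgeR, BH-adjusted p = 0.0684).

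The other 5 genes were not called between the YFH1-on groups. Their log2 fold changes were -0.18 for COX6, with a 95% interval of -0.419 to 0.0551, -0.13 for COX8, from -0.297 to 0.0353, and 0.17 for COX9, from -0.027 to 0.377. For COX12 the value was 0.071, from -0.108 to 0.25, and for COX13 it was 0.12, from -0.0349 to 0.279. Without WT replicate 2, the COX6 value was -0.056 (edgeR, BH-adjusted p = 0.618). The count of 2 called genes rose to 4 without WT replicate 2, when COX9 (0.28, edgeR, BH-adjusted p = 0.00805) and COX13 (0.18, edgeR, BH-adjusted p = 0.0407) passed as well, and it was also 4 with library size only as the scaling.

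With YFH1 off, all 7 transcripts were higher in H113N than in WT, by 1.46-fold to 3.19-fold (edgeR, BH-adjusted p from 2.75e-08 to 0.000311), where 52.4% of genes were called in either direction and 27.2% were higher. The difference was at least 2-fold for 4 of them. The largest difference was in COX6, at 1.67 on the log2 scale, with means of 10.3 ± 2.05 CPM in WT_YFH1-off and 32.8 ± 1.92 CPM in H113N_YFH1-off (SD, n = 4 each). COX4 followed with 1.31, from 15.7 ± 2.44 to 38.8 ± 5.53 CPM (SD, n = 4 each). The smallest difference was in COX9, at 0.55, from 26.9 ± 2.71 to 39.2 ± 3.56 CPM (SD, n = 4 each). The groups overlapped in none of the 7 genes, as was the case for 53.6% of genes tested.

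The 4 group levels of each gene had one order: WT_YFH1-off lowest, then H113N_YFH1-off, then the YFH1-on groups. In all 7 genes the steps between these 3 levels involved no overlapping libraries, an arrangement found in 2.21% of genes tested, 130 of 5876. Against WT with YFH1 on, H113N_YFH1-off was lower by 0.31 on the log2 scale for COX13 and by up to 1.03 for COX6, and all 7 were called (edgeR, BH-adjusted p from 1.76e-06 to 0.00443), where 49.8% of genes were called, 23.7% lower and 26.2% higher. Against WT_YFH1-off, H113N with YFH1 on was higher by 1.14 for COX9 and by up to 2.52 for COX6, and again all 7 were called (edgeR, BH-adjusted p from 1.3e-10 to 6.19e-08), where 60.2% of genes were called and 30.1% were higher. The order above H113N_YFH1-off was not the same in every gene. In COX4 WT was above H113N, in COX7 H113N was above WT, and in the other genes the YFH1-on groups were not called. The comparisons in WT and H113N share no library with each other, but the comparisons between genotypes reuse the same 4 groups and are not separate evidence.

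The authors' deposited table gave the same calls at 0.05. In the authors' deposited table all 7 genes were under 0.05 for the shutoff in WT, for the shutoff in H113N and for H113N against WT with YFH1 off, with largest adjusted p of 9.84e-14, 0.000177 and 7.83e-05. With YFH1 on, the authors' deposited table had 2 genes under 0.05, COX4 at 0.0144 and COX7 at 0.0264. The share of all genes under 0.05 in that table was not computed, so these counts have no background of their own. In the edgeR fit, 49.5% of all genes tested were called for the shutoff in WT and 20.6% for that in H113N. Between genotypes, 46.2% were called with YFH1 on and 52.4% with YFH1 off. No chromosome that holds a member moved as a whole: the median log2 fold change of all tested genes on chromosomes IV, VII, VIII, XII and XIII lay between -0.0612 and 0.0633 in the 5 comparisons.

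Levels of different subunits can be compared only per length, and per kilobase of coding sequence the 7 transcripts were unequal in every group. Transcript ends were not used, which matters most for the shortest coding sequences, COX9 with 180 and COX7 with 183 bases. Their places in the ranking are therefore uncertain. In WT, COX9 was highest with 292.5 ± 42.4 CPM per kb and COX7 lowest with 103.4 ± 7.29 CPM per kb (SD, n = 4 each), a ratio of 2.83. COX13 followed COX9 with 241.3 CPM per kb, and COX8, COX4, COX12 and COX6 lay between 190.1 and 149.5 CPM per kb. With YFH1 off in WT the spread widened: COX9 was at 149.5 and COX6 at 23.0 CPM per kb, a ratio of 6.50. In H113N the ratio of the highest to the lowest gene was 2.60 with YFH1 on, for COX9 and COX7, and 2.97 with YFH1 off, for COX9 and COX6.

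The summed level of the 7 genes was 397.8 ± 45.6 CPM in WT and 127.8 ± 7.86 CPM in WT_YFH1-off, and 388.4 ± 16.5 CPM in H113N and 258.7 ± 7.98 CPM in H113N_YFH1-off (SD, n = 4 each). Within that sum the subunits changed places. In WT the share of COX6 went from 16.8% ± 1.4 to 8.10% ± 1.9 and that of COX4 from 19.7% ± 0.72 to 12.2% ± 1.1 (SD, n = 4 each), while that of COX9 went from 13.2% ± 0.71 to 21.0% ± 1.2 and that of COX13 from 23.7% ± 1.1 to 30.1% ± 1.3 (SD, n = 4 each). The ranges of the libraries did not overlap for any of these 4 genes. The share of COX8 was 11.4% in both groups.

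In H113N the shares moved less. The share of COX4 was 15.3% ± 1.6 in H113N and 15% ± 1.9 in H113N_YFH1-off, and that of COX9 15.3% ± 0.60 and 15.2% ± 1.4 (SD, n = 4 each). Both differences were smaller than the spread between libraries. COX6 went from 15.2% ± 1.1 to 12.7% ± 0.64 and COX13 from 26.4% ± 1.3 to 29.4% ± 0.69 (SD, n = 4 each), without overlap between the libraries.

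**Figure D3:**
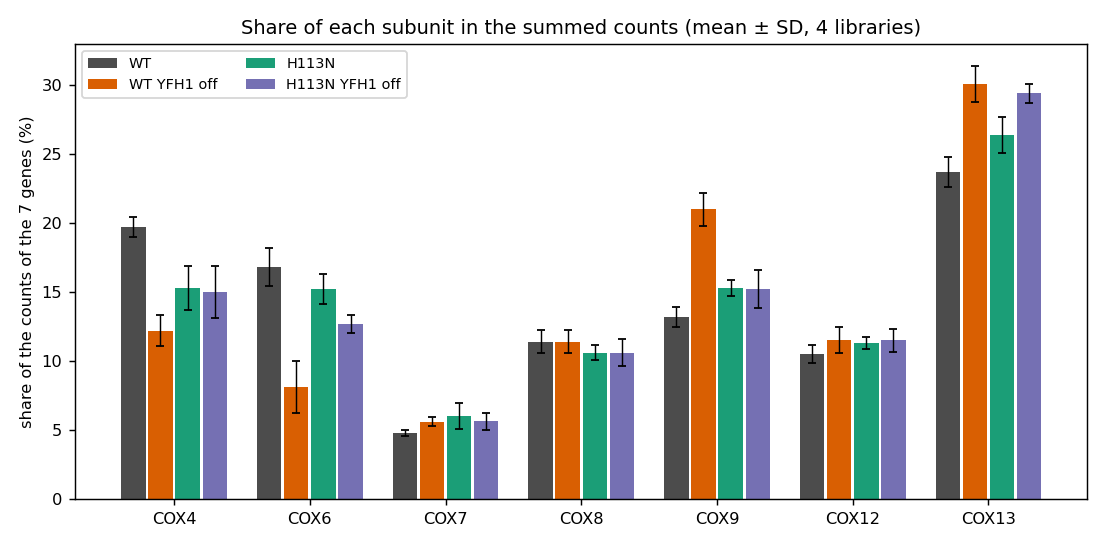
Share of each gene in the summed counts of the 7 genes, as the mean ± SD of 4 libraries per group. In WT the shares of COX4 and COX6 are lower and those of COX9 and COX13 higher with YFH1 off, for example 8.10% against 16.8% for COX6, while in H113N the shares of COX4 and COX9 stay within their error.

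The subunits of the complex outside the 7 did not all behave in the same way. COX5A and COX5B encode alternative forms of subunit Cox5, of which COX5A is the form of aerobic cells and COX5B that of cells short of oxygen. COX5A fell on shutoff. Its WT means were 102.1 ± 17.8 and 28.8 ± 2.39 CPM and its H113N means 84.6 ± 5.43 and 55.1 ± 2.54 CPM (SD, n = 4 each), which gives log2 fold changes of -1.83 and -0.62 and an interaction of 1.21 (edgeR, BH-adjusted p = 1.98e-10, 0.000222 and 5.11e-06). The COX5B means were 54.5 ± 12.1 and 58.0 ± 9.19 CPM for WT with YFH1 on and off, and 54.9 ± 9.52 and 43.6 ± 5.64 CPM for H113N (SD, n = 4 each). The shutoff was not called for COX5B in either genotype in the fit over all groups, with log2 fold changes of 0.096 in WT (95% interval -0.242 to 0.433; edgeR, BH-adjusted p = 0.648) and -0.34 in H113N (95% interval -0.673 to 0.0033; edgeR, BH-adjusted p = 0.16). In a fit of only the H113N groups the value was called (-0.36; edgeR, BH-adjusted p = 0.0405). The interval in WT lies above the values of all 7 members. With YFH1 off, COX5B was lower in H113N than in WT by 0.42 on the log2 scale (edgeR, BH-adjusted p = 0.038), where the 7 members were higher. Its libraries overlapped, and the call was lost with library size only and without WT_YFH1-off replicate 4 or 5 or H113N_YFH1-off replicate 2, 3 or 5 (edgeR, BH-adjusted p from 0.0595 to 0.142).

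COX26 encodes a small subunit of the yeast enzyme, and few reads were assigned to it. Its counts were 2, 2, 8 and 6 in the WT libraries and 0, 0, 0 and 1 in WT_YFH1-off, against 45, 36, 60 and 28 in H113N and 24, 20, 30 and 23 in H113N_YFH1-off. Every H113N library was above every WT library, whether YFH1 was on or off. On shutoff COX26 fell, like the 7 members, with log2 fold changes of -3.55 in WT and -0.997 in H113N (edgeR, BH-adjusted p = 0.0052 and 0.00755). The value in WT rests on 8 counts or fewer per library. The interaction of 2.56 was not called (edgeR, BH-adjusted p = 0.0714), but it was called in 2 of 21 alternatives. With YFH1 on, COX26 was higher in H113N by a log2 fold change of 3.18 (edgeR, BH-adjusted p = 1.36e-06), and with YFH1 off it was at least 6.25-fold higher, taken against the floor of 3 counts per library in WT_YFH1-off. The largest difference between genotypes among the 7 members with YFH1 on was that of COX4, at -0.40.

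Of the mitochondrial genes, COX2 and COX3 had at most 1 count in any library and were not tested, in libraries made from polyadenylated RNA. COX1 was measured at 1.33 to 1.96 CPM in WT and 1.57 to 5.09 CPM in WT_YFH1-off, and the groups overlapped. Its log2 fold change of 1.14 (edgeR, BH-adjusted p = 0.0123) was lost as a call without WT_YFH1-off replicate 5 (0.90, edgeR, BH-adjusted p = 0.0613). The annotation places 6 other genes within COX1, so reads counted to it are uncertain.

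Cytochrome c, the substrate of the enzyme, is encoded by CYC1 and CYC7. Of 4 listed genes for cytochrome c and its maturation, 1 fell on shutoff in WT, CYC1, none rose, and 2 fell in H113N, where 25% and 8.73% of all genes were lower. CYC1 held 24.4 to 36.0 CPM in WT and 0 to 0.649 CPM in WT_YFH1-off, with counts of 0, 3, 2 and 6 in the latter, and 20.1 to 21.6 CPM in H113N and 4.77 to 7.94 CPM in H113N_YFH1-off. No groups with YFH1 on and off overlapped. The log2 fold changes were -6.24 in WT and -1.75 in H113N (edgeR, BH-adjusted p = 2.42e-11 and 3.67e-06), both larger than that of any of the 7 oxidase genes in the same genotype. The value in WT rests on few counts in WT_YFH1-off and ran from -6.84 without replicate 5 of that group to -5.89 without its replicate 2. CYC7, the minor form, was low, at 0.124 to 3.17 CPM over all libraries, and its shutoff effect was not called in WT (-0.053, 95% interval -1.21 to 1.10) or in H113N (0.31, 95% interval -0.47 to 1.09).

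Among 6 listed regulators, HAP4, HAP1 and ROX1 were called on shutoff in WT, a share of called genes like the 49.5% over all genes. HAP4 encodes the activation subunit of the Hap2/3/4/5 complex. It held 89.3, 101.5, 110.3 and 94.4 CPM in WT and 20.01, 19.97, 22.1 and 18.5 CPM in WT_YFH1-off, and 78.9, 83.5, 78.5 and 67.6 CPM in H113N and 71.4, 71.0, 81.1 and 75.2 CPM in H113N_YFH1-off. The WT groups were far apart and the H113N groups overlapped. In WT its log2 fold change was -2.29 (SE 0.0858; edgeR, BH-adjusted p = 1.38e-12), and in H113N it was -0.045 with a 95% interval of -0.206 to 0.116 (edgeR, BH-adjusted p = 0.74). The interaction was 2.25 (SE 0.115; edgeR, BH-adjusted p = 3.49e-10). The 7 oxidase genes fell in H113N, at -0.43 to -0.85, values below that interval. No relation between HAP4 and the oxidase genes was tested.

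HAP1, the heme-responsive activator, and ROX1, the repressor of hypoxic genes, rose on shutoff. The HAP1 means in WT were 316.3 ± 22.7 CPM with YFH1 on and 1157 ± 50.5 CPM with it off, and those in H113N 361.9 ± 17.8 and 429.9 ± 13.1 CPM (SD, n = 4 each), or 1.87 and 0.25 on the log2 scale (edgeR, BH-adjusted p = 1.37e-13 and 0.00426). The ROX1 means in WT were 80.5 ± 7.54 and 220.4 ± 16.8 CPM, and those in H113N 85.2 ± 8.20 and 110.2 ± 6.76 CPM (SD, n = 4 each), or 1.45 and 0.37 on the log2 scale (edgeR, BH-adjusted p = 1.71e-10 and 0.00343). HAP2, HAP3 and HAP5, the DNA-binding subunits of the complex, were not called in WT, at -0.23, -0.10 and 0.32 (edgeR, BH-adjusted p = 0.0657, 0.395 and 0.0575). HAP5 was called without WT replicate 2 (0.48; edgeR, BH-adjusted p = 0.00114) and without WT_YFH1-off replicate 2 (0.39; edgeR, BH-adjusted p = 0.0333). HAP2 was called in 4 alternatives, with library size only (-0.35; edgeR, BH-adjusted p = 0.00818), without H113N replicate 2 or 4, and in a fit of only the WT groups.

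**Figure D4:**
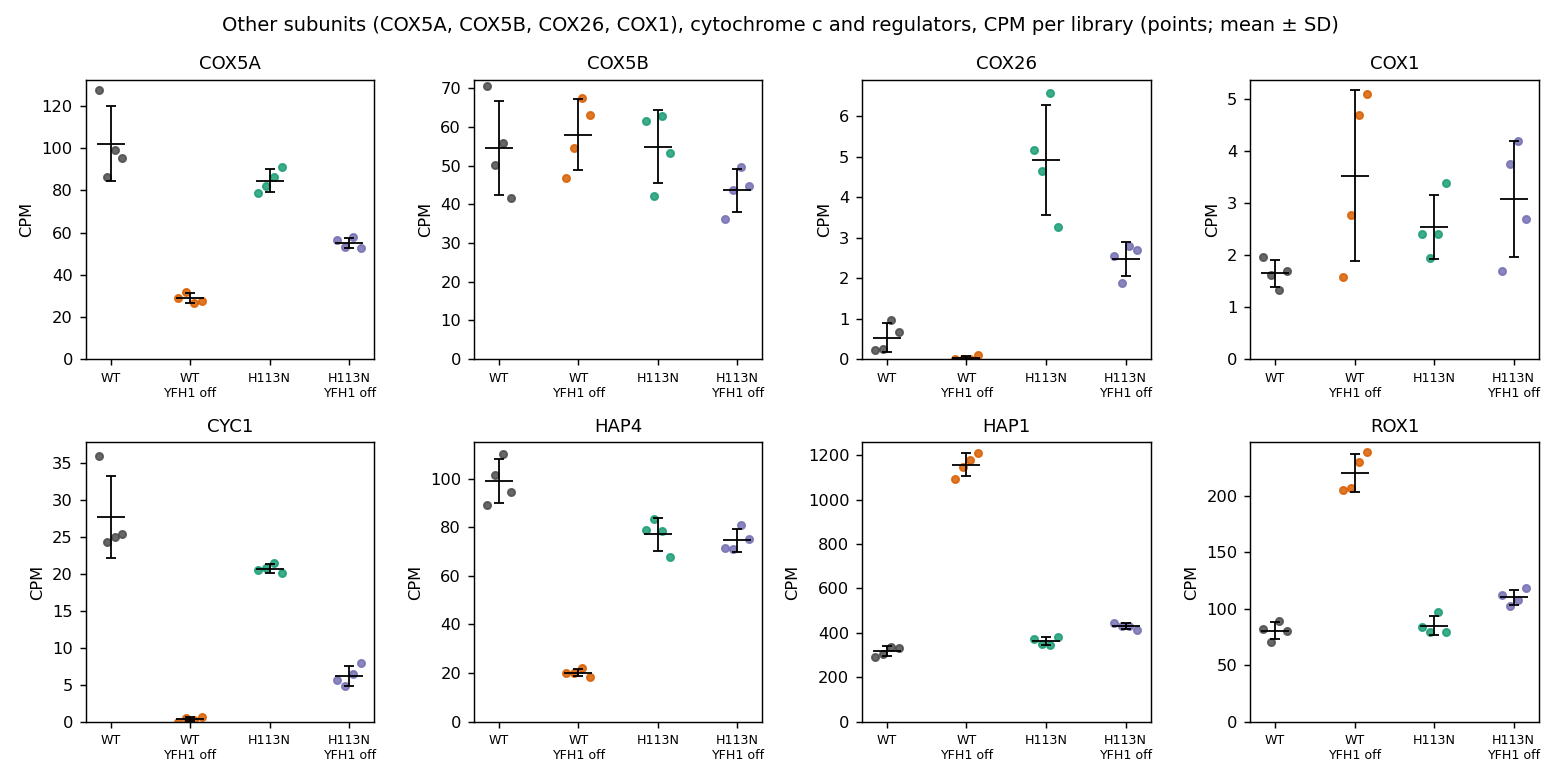
CPM in all 16 libraries for the other subunits COX5A, COX5B, COX26 and COX1, for CYC1 and for the regulators HAP4, HAP1 and ROX1; points are libraries, and the bar and whiskers give the mean ± SD of 4. COX5A follows the order of the 7 members, the COX5B libraries of WT overlap with those of WT YFH1-off, and HAP4 is low in WT YFH1-off alone, at 18.5 to 22.1 CPM against 67.6 to 110.3 CPM elsewhere.

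Genes whose products assemble the enzyme were read from a list of 42, all tested. In WT 24 of the 42 fell on shutoff, 4 rose and 14 were not called, where 25% of all genes tested were lower and 24.5% higher, and their median was -0.32 on the log2 scale. In H113N 12 fell, 2 rose and 28 were not called, where 8.73% of all genes were lower and 11.8% higher, with a median of -0.16. Of these, 4 lie on chromosome II, where the median of the 414 genes tested was -0.172 for this comparison and 0.213 for H113N against WT with YFH1 on. All 4 were among the 12 that fell, and without them 8 of 38 fell. The part of that chromosome's shift in these calls was not tested. The interaction was called for 17, higher in 13 and lower in 4, where 17% of all genes were higher and 13.8% lower, with a median of 0.19. The largest fall in WT was in COA2, a late assembly factor, whose mean was 8.60 ± 2.20 CPM in WT and 0.453 ± 0.493 CPM in WT_YFH1-off (SD, n = 4 each), or -4.31 on the log2 scale (SE 0.383; edgeR, BH-adjusted p = 7.19e-08). Its WT_YFH1-off libraries held 0 to 7 counts. In H113N the means were 5.51 ± 1.14 and 3.13 ± 0.234 CPM (SD, n = 4 each), or -0.82 (edgeR, BH-adjusted p = 0.0351), a call lost without either of 2 H113N libraries or without any 1 of the 4 H113N_YFH1-off libraries (edgeR, BH-adjusted p from 0.0598 to 0.119).

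By role, counts are small, and they stand beside the 25% of all genes lower and 24.5% higher on shutoff in WT. Of 4 genes for heme A synthesis, 3 fell in WT, led by COX15, which makes heme A from heme O, at -1.34 (SE 0.095; edgeR, BH-adjusted p = 4.07e-09) with means of 125.7 ± 19.7 and 49.6 ± 4.21 CPM (SD, n = 4 each). Its interaction was 0.93 (edgeR, BH-adjusted p = 4.08e-05). Of 10 genes of late assembly and supercomplexes, 7 fell and none rose, among them PET100, an assembly chaperone, at -1.05 (edgeR, BH-adjusted p = 1.18e-05). Of 10 genes for expression of the mitochondrial subunits, 6 fell and 1 rose. Those that differed most were PET54, at -0.78 (edgeR, BH-adjusted p = 5.56e-06), and PET122, at 0.54 (edgeR, BH-adjusted p = 0.00379), both activators of COX3 mRNA translation, which thus moved in opposite directions.

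Of 10 genes for copper delivery, 5 fell and 1 rose, COA6, at 0.38 (edgeR, BH-adjusted p = 0.00149). Of 8 genes for insertion and processing of the mitochondrial subunits, 3 fell and 2 rose. In this comparison 49.5% of all genes were called, 25% lower and 24.5% higher. With so few genes in each role, no difference from these shares was tested. The 2 genes for insertion and processing that rose were IMP2, a subunit of the inner membrane peptidase, at 0.61 (edgeR, BH-adjusted p = 8.87e-06), and COX20, a chaperone of Cox2, at 0.56 (edgeR, BH-adjusted p = 0.0151). The COX20 call was lost with library size only and without WT replicate 3, WT replicate 5 or WT_YFH1-off replicate 4 (edgeR, BH-adjusted p from 0.0502 to 0.0686). In H113N neither IMP2 (-0.058) nor COA6 (-0.085) was called, while PET122 rose there too, at 0.56 (edgeR, BH-adjusted p = 0.00799).

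**Figure D5:**
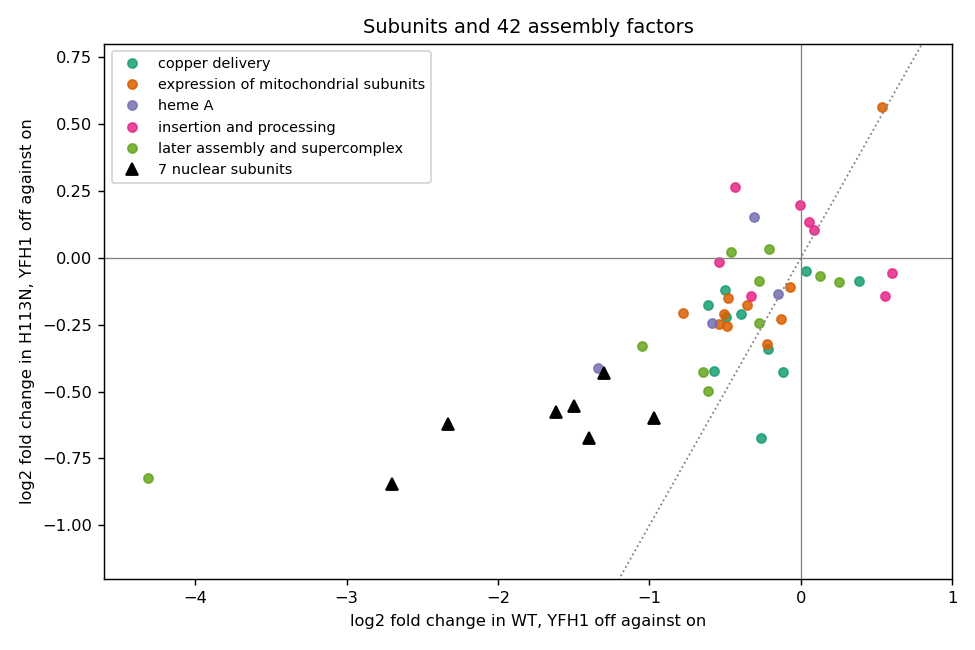
Log2 fold change on YFH1 shutoff in WT (horizontal axis) and in H113N (vertical axis) for the 7 subunit genes (triangles) and 42 assembly factors (circles, by role); the dotted line marks equal change. The subunits lie between -2.70 and -0.97 on the horizontal axis, where COA2 at -4.31, COX15 at -1.34 and PET100 at -1.05 are the only assembly factors at or below -0.97.

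Set beside the other respiratory complexes, the 7 oxidase genes stood between them in the size of the fall in WT. The median log2 fold change in WT was -2.58 for 9 nuclear subunits of the bc1 complex and -2.52 for 4 subunits of succinate dehydrogenase, against -1.5 for the oxidase and -0.61 for 14 subunits of ATP synthase. The genes called lower in WT numbered 9 of 9, 4 of 4, 7 of 7 and 13 of 14, where 25% of all genes were lower. In H113N the medians were -0.84, -0.92, -0.60 and -0.43, so that the complexes lay closer together. The median interaction was 1.68 for bc1, 1.60 for succinate dehydrogenase, 0.95 for the oxidase and 0.095 for ATP synthase, with 8 of 9, 4 of 4, 6 of 7 and 3 of 14 genes called higher, where 17% of all genes were higher. These are descriptions of lists, and the differences between lists were not tested.

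Likeness of profiles was measured as the root mean square difference of centred log2 CPM over the 16 libraries. Among the 7, COX12 and COX8 lay nearest to the mean of the other 6, at 0.127 and 0.134 on the log2 scale. COX13 and COX7 followed at 0.191 and 0.193, and COX4, COX9 and COX6 lay farthest, at 0.304, 0.326 and 0.482. Of 5177 other genes with a mean log2 CPM of at least 3, 493 lay nearer to that mean than COX6 did. For COX4 and COX9 such genes numbered 71 and 64, for COX7 and COX13 13 and 10, and for COX8 and COX12 1 each. Of these 5177 genes, the nearest to the mean profile of the 7 was LIP5, which encodes lipoyl synthase, at 0.128. COX5A came next at 0.144, followed by SCS7, a sphingolipid hydroxylase, at 0.147, CCC1, the iron importer of the vacuole, at 0.157, and ILV3, dihydroxyacid dehydratase, at 0.158. AIM1 (0.161), the Ty3 gene YIL082W-A (0.171) and NFU1 (0.174), the last a mitochondrial iron-sulfur protein, completed the 8 nearest, and YIL082W-A belongs to a retrotransposon family whose near-identical copies make its counts uncertain. Their shutoff effects ran from -1.35 for SCS7 to -1.89 for LIP5 in WT and from -0.41 for NFU1 to -0.86 for YIL082W-A in H113N.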

How the data were processed

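The deposited table of raw counts per gene holds 16 libraries, and no per-sample column was left unassigned. Per the submitters' processing notes, FastQC, cutadapt, HISAT2, featureCounts, DESeq2 and the sacCer3 build were used; versions, annotation, use of strand and treatment of reads with several matches are not given in the sources used here. Per the labels, RNA was extracted with hot acid phenol and libraries were made with a kit that selects mRNA, which limits what is seen of mitochondrial transcripts. A second deposited table gives a normalized signal, the raw counts divided by size factors (largest relative deviation 6.23e-10 on recomputing), and was used for gene names. The adjusted p-values in the authors' deposited table were copied as given.

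Groups were taken from the sample labels. The fits used edgeR 4.0.16 with limma 3.58.1 under R 4.3.3, namely filterByExpr, TMM scaling, glmQLFit over all 4 groups and glmQLFTest, with Benjamini-Hochberg (BH) adjustment over all 5876 genes tested and a threshold of 0.05. Standard errors were derived from the log2 fold change and the F statistic, and 95% intervals from the fit's degrees of freedom. The procedure was tested on simulated counts. Alternatives were other scalings, other filters, DESeq2 1.42.0, a replicate block, a fit of only the groups compared, and each library left out. No replicate pair of a group agreed within sampling noise (chi-square per degree of freedom 2.905 to 74.69 in 24 pairs).

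The members and gene lists were chosen with earlier results of these data known. Genes named are the 7 members, YFH1, the other subunits, CYC1 and CYC7, 6 regulators, assembly factors with the 4 largest called falls, the 4 largest called rises or the 3 smallest interaction p, and the 8 genes nearest to the members' mean profile. The lists for the bc1 complex, succinate dehydrogenase and ATP synthase are given as counts and medians. Sequences were read from RefSeq R64, in which 6008 of the 6692 gene IDs were matched. Levels per length use coding length, since transcript ends were not used.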

Additional observations from a re-analysis of the deposited data

Results flagged for a closer look

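Of 80 groups of 4 libraries checked for a library far from the others, 2 had one, where chance gives about 1 in 20. COX6 stood at 83.5 CPM in WT replicate 2, against 60.5 to 62.3 CPM in the other WT libraries. CYC1 stood at 36.0 CPM in WT replicate 2, against 24.4 to 25.5 CPM. Both flags fall on the same library, so they are not separate, and the comparison with chance is a description. Leaving it out raised the genes called from 2909 to 3225 for the shutoff in WT and from 1209 to 1649 in H113N. Between genotypes they rose from 2716 to 2998 with YFH1 on and from 3078 to 3471 with YFH1 off. For the interaction they rose from 1808 to 2255.

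The shutoff effect differed between the genotypes, by edgeR's interaction test, for 26 of 35 named genes tested, where 30.8% of all genes were called. Many of the 35 were named for the size of their change, their interaction or their likeness to the members, so this count is a description. Among the 7 members the interaction on the log2 scale was 1.71 for COX4, 1.86 for COX6, 0.727 for COX7, 1.05 for COX8, 0.948 for COX12 and 0.865 for COX13. It was 1.21 for COX5A, 0.838 for YFH1 itself and 4.49 for CYC1. The regulators had values of -1.62 for HAP1, 2.25 for HAP4 and -1.09 for ROX1.

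Among the assembly factors it was 3.49 for COA2, 0.932 for COX15, 0.716 for PET100, 0.574 for PET54, -0.662 for IMP2, -0.696 for COX20 and -0.466 for COA6. The COX20 call was lost in 12 of 22 alternatives (edgeR, BH-adjusted p from 0.0538 to 0.0916), namely with library size only and without any 1 of 11 libraries. The genes nearest in profile had values of 1.26 for LIP5, 0.803 for SCS7, 0.954 for CCC1, 1.15 for ILV3, 1.01 for AIM1, 0.923 for YIL082W-A and 1.00 for NFU1. The latter were selected for a profile like that of the members, so their interactions are a description.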

How the results depend on the processing

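Under 23 alternatives, of which 16 leave out 1 library, the number of members called stayed at 7 for the shutoff in WT, for the shutoff in H113N and for H113N against WT with YFH1 off. For the interaction it was 6 to 7 under 22 alternatives, since a fit of only the groups compared gives no interaction. With YFH1 on, the number of members called between genotypes was 4 with library size only and 1 with only the groups compared, and it ran from 1 to 4 when libraries were left out: 4 without WT replicate 2, and 1 without WT replicate 4, H113N replicate 2 or H113N replicate 3. With library size only the members' median was -0.66 for the shutoff in H113N and 1.15 for H113N against WT with YFH1 off. The order of the 4 group levels held for all 7 members without any 1 library. Leaving out libraries, the members' medians ran from -1.56 to -1.45 for the shutoff in WT, from -0.629 to -0.559 in H113N, from 0.0185 to 0.123 and from 0.968 to 1.04 between genotypes with YFH1 on and off, and from 0.881 to 0.996 for the interaction. Over all named values, 4085 of 4192 alternatives kept the side of the threshold, 81 lost a call and 26 gained one. Among values called in the main fit or in the alternative, 0 reversed direction. Changes of direction among values called in neither were not counted.

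With library size only, the median of all genes shifted to -0.107 for the shutoff in WT and to 0.133 for H113N against WT with YFH1 off, and the share of higher genes among those called moved from 49.5% to 30.9% and from 51.9% to 73.9%. It moved from 57.6% to 37.2% for the shutoff in H113N, from 49.7% to 66.1% between genotypes with YFH1 on and from 55.2% to 65.9% for the interaction.

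Each library's log2 CPM was taken as deviations from its group mean, gene by gene. Between same-numbered libraries of different groups these deviations correlated between -0.203 and 0.228 over 24 pairs, with 8 above 0.1. The numbers were therefore not taken to pair samples. With the replicate block the members called were 7 for the shutoff in WT, 7 in H113N, 2 and 7 between genotypes with YFH1 on and off, and 6 for the interaction. Depth limits COX26, CYC1 and COA2 in WT_YFH1-off, CYC7 and COX1, whose libraries hold few counts.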
